A study of Mus musculus with 12 samples.

Results

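The genes described here are the matrix and membrane metalloproteases of the ADAM, ADAMTS and MMP families and their TIMP inhibitors, taken as every gene symbol that starts with Adam or that has Mmp or Timp followed by a digit. They came to 45 of the 15397 genes measured, with 12 ADAM, 15 ADAMTS, 5 ADAMTS-like, 10 MMP and 3 TIMP genes. Another 41 protein-coding genes of the RefSeq annotation meet the same rule, among them Timp1, Mmp3 and Mmp12, and were not analysed here. The symbols alone chose the members, so no measured value took part.

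RNA sequencing was done on microdissected striatum from 12 mice of strain C57BL/6, 3 in each of 4 groups. The groups were R6/2 mice given PLX3397, R6/2 mice given vehicle, wild-type mice given PLX3397 and wild-type mice given vehicle, and treatment ran from week 7 to week 11 of age. PLX3397 is an inhibitor of the CSF1 receptor, on which microglia depend for survival, and was given in the chow at 275 ppm to remove these cells. R6/2 mice model Huntington's disease by a transgene with the first exon of human huntingtin and an expanded CAG repeat, driven by the human huntingtin promoter, so they carry a fragment of the disease protein beside their own huntingtin genes and sicken early. The study asked what removing microglia does to the striatum of this model, its extracellular matrix included.

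Metalloproteases of these families hold a zinc ion in their active site. ADAM proteins sit in the cell membrane and shed the outer parts of other membrane proteins, whereas some brain ADAMs have lost the active site and bind synaptic and myelin ligands instead. ADAMTS enzymes are secreted, and a subgroup of them cuts aggrecan, brevican and versican, the proteoglycans that build perineuronal nets around neurons. MMPs cut collagens and many other matrix and surface proteins, and TIMPs block MMPs and, in the case of Timp3, also ADAM and ADAMTS enzymes.

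The deposited values were log2 CPM (the reads of a gene scaled to the size of its library), from 18902120 to 24293208 assigned reads per library, and a gene was called where its adjusted p was under 0.05 in limma, with the Benjamini-Hochberg adjustment over all 15397 genes. In the main fit, each p-value rests on 1 estimate per gene of the spread between mice, pooled over the 4 groups of 3 mice. A call can therefore change when a library outside its comparison is left out. Summed over 10 microglial markers, CPM was 23.1 to 33.1 in R6/2 PLX3397, 385 to 531 in R6/2 vehicle, 21.8 to 40.2 in wild-type PLX3397 and 428 to 499 in wild-type vehicle libraries. Siglech had 0 reads in at least 1 library of each PLX3397 group, P2ry13 in R6/2 PLX3397 and C1qc in wild-type PLX3397. Markers of medium spiny neurons, the main cell of the striatum, were present in every library, with 9 of 9 measured and a sum of 367 to 1201 CPM in R6/2 PLX3397, 369 to 860 CPM in R6/2 vehicle, 5255 to 10998 CPM in wild-type PLX3397 and 2262 to 5914 CPM in wild-type vehicle. In bulk tissue, fewer cells of a type and less RNA per cell cannot be told apart. Some libraries stood apart. R6/2 PLX3397 libraries 1 and 2 had 25.4 and 20.8 CPM of cortical neuron markers summed over 5 genes, against 734 CPM in the third. Wild-type PLX3397 library 1 was also low in them, at 65.3 CPM against 621 and 933 CPM in libraries 2 and 3 of its group. R6/2 vehicle library 1 and wild-type PLX3397 library 1 had 4525 and 1036 CPM of choroid plexus markers, against at most 106 CPM in any other library.

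Levels per length separated the members widely. Timp2, an inhibitor that also takes part in activating Mmp2, was the most abundant at 101 CPM per kilobase on average over the 12 libraries. The shedding enzyme Adam15 followed at 36.4, then Adam23, a brain ADAM without catalytic activity, at 28.9, Timp3 at 26.6, the membrane-type enzyme Mmp17 at 24.8, and Adam22, which binds the secreted protein LGI1 at synapses, at 24.6 CPM per kilobase. Adam11, also without catalytic activity, stood at 21 CPM per kilobase, and the alpha-secretase Adam10 at 16.9. These averages hide spreads that cover the gaps between neighbours: in R6/2 PLX3397 mice, Adam15 had 31.4 ± 3.58 and Adam23 28.9 ± 2.59 CPM per kilobase (SD, n = 3 each), and in wild-type vehicle mice they had 31.9 ± 5.01 and 31.5 ± 7.31. Timp2 stood clear of the rest in each group, at 123 ± 29.9 in R6/2 PLX3397, 98 ± 21.9 in R6/2 vehicle, 84.9 ± 11.4 in wild-type PLX3397 and 96.4 ± 20.7 in wild-type vehicle mice. The other members were lower, among them Adamts3 at 10.9 and the membrane-type enzyme Mmp24 at 9.8 CPM per kilobase. Adamts4 reached 8.34, Adamts1 3.16, Mmp2 1.79, Adamts6 0.867, Adam8 0.465, Mmp9 0.385 and Adamts5 0.356 CPM per kilobase, and the lowest were Adam33 at 0.197 and Adamts7 at 0.137. Of the 45 members, 43 had a mean of at least 1 CPM, and all 45 were tested.

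**Figure D1:**
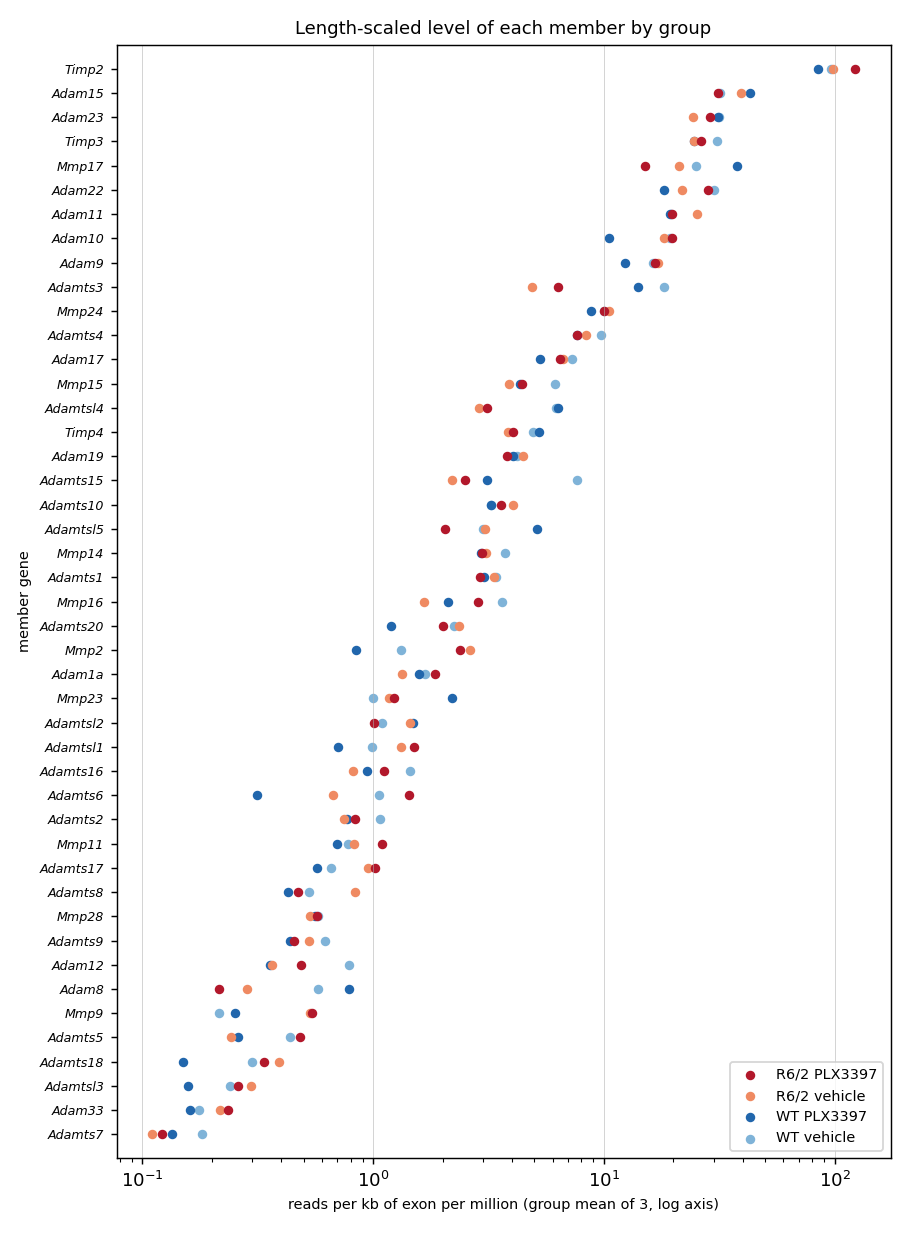
Level of each of the 45 members in CPM per kilobase, on a log axis, with 1 point per group, the mean of its 3 libraries. Points are coloured by group, and members run down the page by average level. Timp2 lies above every other member, and Adamts7 and Adam33 are lowest on average.

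For R6/2 against wild type on vehicle, the comparison that shows the transgene without the drug, 0 of the 45 members were called, against 2.11% of all genes. An unadjusted p under 0.05 was reached by 10 members in limma. The share of all genes at that unadjusted threshold was not computed, so this count is not read as an excess. Limma-voom on the recovered reads also called 0, against 0.942% of all genes. The member median was -0.11 on the log2 scale, next to 0.009 over all genes, with 21 members above 0 and 24 below. The 325 genes behind the 2.11% became 1 without wild-type vehicle library 1 or 2 and 2 without R6/2 vehicle library 2. The smallest p belonged to Adamts3, which removes the N-terminal propeptide of fibrillar procollagen and is also known for processing reelin. It had 3.85, 4.89 and 5.09 log2 CPM in R6/2 vehicle mice, against 6.34, 7.21 and 5.95 log2 CPM in wild-type vehicle mice. The groups did not overlap, and the difference was -1.89 ± 0.47 (SE), with an adjusted p of 0.0635 in limma. It was called, at an adjusted p of 0.0362 in limma, where a trend with GC content and length was removed from each library, which called 6.34% of all genes.

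Other differences on vehicle were not called either. Mmp9, the gelatinase that cuts denatured collagen and some perineuronal net proteins, had 0.90, 0.44 and 1.07 log2 CPM in R6/2 vehicle mice, against -0.41, -1.01 and 0.10 log2 CPM in wild-type vehicle mice. Those are 25 to 47 reads a library in R6/2 vehicle and 9 to 23 in wild-type vehicle, the groups did not overlap, and the difference was 1.24 ± 0.38 with an adjusted p of 0.102 in limma. Adam12, a sheddase of muscle, bone and oligodendrocyte-lineage cells, differed by -1.11 ± 0.35, with an adjusted p of 0.108. Adamts15, an aggrecan- and versican-cutting enzyme, had 2.66, 3.90 and 4.17 log2 CPM in R6/2 vehicle mice, against 5.36, 5.51 and 5.64 log2 CPM in wild-type vehicle mice, a difference of -1.93 ± 0.62 with an adjusted p of 0.112 in limma. Adamts15 was called in a fit of these groups alone, without R6/2 PLX3397 libraries 1 and 2, and without R6/2 PLX3397 library 3. R6/2 vehicle library 1, the one highest in choroid plexus markers, was the lowest of its group for both Adamts3 and Adamts15. Among the 7 proteoglycan-cutting ADAMTS genes, 3 were above 0 and 4 below, and the net-cutting enzymes Adamts4 and Adamts5 differed by -0.20 ± 0.28 and -0.85 ± 0.30, with adjusted p of 0.706 and 0.14 in limma.

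With PLX3397 in wild-type mice, 3 of the 45 members fell and 0 rose, which is 6.67% of the members against 14.2% of all genes in either direction, with 8.3% lower and 5.93% higher. The members' shares are below those of the background, and their number is no result about the families. The 2191 genes behind the 14.2% became 228 when wild-type vehicle library 1 was left out and 242 when library 2 was. Those that fell were Adamts6, Adam10 and Adamts20. The member median was -0.33 on the log2 scale, next to 0.005 over all genes, with 34 members below 0 and 11 above. By role, the 7 proteoglycan-cutting ADAMTS genes were all below 0, with a median of -0.50 and 1 called. Of the 6 other ADAMTS enzymes 5 were below 0, with a median of -0.82 and 1 called. Among the 6, Adamts7 had 23, 25 and 1 reads and Adamts18 had 1, 29 and 25 reads in wild-type PLX3397 libraries 1 to 3. A single library thus weighs heavily on each of these differences and on that median. The 8 catalytic ADAMs had a median of -0.27 with 1 called, the 5 membrane-type MMPs a median of -0.33 with 0 called, and the 3 TIMPs a median of -0.17 with 0 called. After removal of the GC and length trend the 7 proteoglycan-cutting genes had a median of -0.36 with 6 below 0, and 0 of the 45 members were called, against 6.77% of all genes.

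Adamts6, a secreted enzyme known in mouse heart development, lies at chr13:104286518-104496695 on the plus strand of GRCm38. It had 0.88, 0.69 and 1.61 log2 CPM in wild-type PLX3397 mice, against 3.05, 2.80 and 2.60 log2 CPM in wild-type vehicle mice. Every PLX3397 library lay below every vehicle library, at 34 to 60 reads against 140 to 153. The difference was -1.76 ± 0.35, a 3.38-fold lower level, with an adjusted p of 0.0138 in limma. The call was lost without wild-type vehicle library 1 (adjusted p = 0.0679), without wild-type vehicle library 2 (0.0627) and after removal of the GC and length trend (0.0651, difference -1.03 ± 0.30).

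Adam10, the main alpha-secretase of neurons and a sheddase of Notch and N-cadherin, lies at chr9:70678944-70780229 on the plus strand. It had 5.50, 5.30 and 5.92 log2 CPM in wild-type PLX3397 mice, against 6.45, 6.69 and 6.24 log2 CPM in wild-type vehicle mice. The groups did not overlap, and Adam10 fell by 0.89 on the log2 scale, with an SE of 0.22 and an adjusted p of 0.0252 in limma. The call was lost without wild-type PLX3397 library 2 (adjusted p = 0.0709), wild-type vehicle library 1 (0.091) or wild-type vehicle library 2 (0.105), in a fit of these groups alone (0.0702) and after removal of the GC and length trend (0.411, difference -0.28 ± 0.20). Adam17, the related sheddase known for releasing TNF, differed by -0.50 ± 0.18 with an adjusted p of 0.0771 in limma, and Adam9 by -0.40 ± 0.16 with an adjusted p of 0.0985.

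Adamts20, a versican-cutting enzyme known in mouse for pigment cell migration, lies at chr15:94268314-94432074 on the minus strand. It had 3.36, 3.26 and 3.45 log2 CPM in wild-type PLX3397 mice, against 4.22, 4.40 and 4.16 log2 CPM in wild-type vehicle mice. The groups did not overlap, and the gene fell by 0.90 on the log2 scale, with an SE of 0.25 and an adjusted p of 0.0389 in limma. This call was lost without any single wild-type library (adjusted p 0.0548 to 0.13 over the 6), without R6/2 vehicle library 3 (0.0567), with limma-voom (0.0545) and after removal of the GC and length trend (0.345).

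Beside these, 5 markers of oligodendrocyte precursors, which express Adamts20's substrate versican, summed to 88.7 to 116 CPM in wild-type PLX3397 and 232 to 270 CPM in wild-type vehicle mice. The sum of 6 astrocyte markers was 2273 to 3235 CPM in wild-type PLX3397 and 3752 to 4996 CPM in wild-type vehicle mice. Together with the microglial markers above, the markers of 3 cell types thus lay lower with the drug, without overlap between groups, and their part in the fall of the 3 members was not tested. They are named for lying apart, and the sums of all other cell types measured overlapped between these groups. Medium spiny neuron markers leaned the other way, at 5255 to 10998 CPM in wild-type PLX3397 and 2262 to 5914 CPM in wild-type vehicle mice.

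In all, 6 members were called in a comparison that involves the drug's change, in wild-type mice or as a difference between genotypes: Adam10, Adam15, Adam22, Adamts5, Adamts6 and Adamts20. RefSeq promoter windows of 300 bases (250 before and 50 after the annotated start, GRCm38.p6) were at hand for 4 of them, and they are shown because these members were called in one of those tests, Adam15 and Adam22 only in the difference between genotypes. The table's start for Adamts20 lies 27724 bases inside the outer end of the gene given above, so its window is not that of the outermost start, whereas the starts used for Adam10, Adam15 and Adam22 lie within 152 bases of the gene's outer end. Capitals mark the motifs found on either strand, where overlapping matches run together. The search was for a GC box, spelled GGGCGG, for a CCAAT box of those letters, for an AP-1 site, spelled TGANTCA, and for a TATA box, spelled TATAAA.
Adam10: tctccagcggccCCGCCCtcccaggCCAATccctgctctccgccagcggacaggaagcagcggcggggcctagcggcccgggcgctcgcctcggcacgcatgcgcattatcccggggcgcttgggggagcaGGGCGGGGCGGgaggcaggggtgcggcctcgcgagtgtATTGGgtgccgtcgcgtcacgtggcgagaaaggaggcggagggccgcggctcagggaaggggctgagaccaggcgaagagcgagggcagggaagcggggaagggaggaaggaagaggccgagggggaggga
Adam15: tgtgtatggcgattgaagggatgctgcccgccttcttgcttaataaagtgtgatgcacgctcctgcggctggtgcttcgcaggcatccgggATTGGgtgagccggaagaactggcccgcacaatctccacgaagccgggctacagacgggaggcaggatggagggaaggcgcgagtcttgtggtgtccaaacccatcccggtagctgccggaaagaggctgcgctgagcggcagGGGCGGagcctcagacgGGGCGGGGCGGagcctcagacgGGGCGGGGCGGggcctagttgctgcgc
Adam22: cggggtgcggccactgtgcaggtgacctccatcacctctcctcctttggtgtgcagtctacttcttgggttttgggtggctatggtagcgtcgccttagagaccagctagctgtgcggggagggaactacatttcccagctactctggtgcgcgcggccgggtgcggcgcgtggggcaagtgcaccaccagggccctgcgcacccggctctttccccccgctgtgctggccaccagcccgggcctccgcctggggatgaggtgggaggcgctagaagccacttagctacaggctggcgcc
Adamts20: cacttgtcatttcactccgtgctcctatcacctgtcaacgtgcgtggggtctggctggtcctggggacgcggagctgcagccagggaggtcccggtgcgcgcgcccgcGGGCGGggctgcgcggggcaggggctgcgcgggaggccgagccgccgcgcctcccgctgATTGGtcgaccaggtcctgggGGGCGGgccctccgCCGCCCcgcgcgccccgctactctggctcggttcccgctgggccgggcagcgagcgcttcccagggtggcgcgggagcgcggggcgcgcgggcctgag
The windows are chr9:70678732-70679031 on the plus strand for Adam10, and on the minus strand chr3:89349979-89350278 for Adam15, chr5:8368111-8368410 for Adam22 and chr15:94404301-94404600 for Adamts20. Their GC content was 73.3% for Adam10, 65.3% for Adam15, 66.3% for Adam22 and 77.3% for Adamts20, with a median of 52.7% over all promoter windows in the table. Adam10 held 3 GC boxes and 2 CCAAT boxes, Adam15 held 5 and 1, Adamts20 held 3 and 1, and Adam22 held none of the motifs. A GC box was found in 35.7% of 32851 windows, a CCAAT box in 37.4%, an AP-1 site in 7.81% and a TATA box in 13.6%, and none of these 4 windows held an AP-1 site or a TATA box.

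With PLX3397 in R6/2 mice, 0 of the 45 members were called, against 1.1% of all genes. An unadjusted p under 0.05 was reached by 5 members in limma, a count again without the share of all genes and not read as an excess. Limma-voom called 0, against 1.03% of all genes. Members lay on both sides of 0, with 24 above and 21 below and a median of 0.00 on the log2 scale, next to -0.013 over all genes. The smallest p belonged to Adamts5, a principal aggrecan-cutting enzyme at chr16:85858157-85901125 on the minus strand, at 2.52, 2.73 and 1.83 log2 CPM in R6/2 PLX3397 mice, against 1.59, 1.69 and 0.92 log2 CPM in R6/2 vehicle mice. These groups did not overlap, but the difference of 0.96 ± 0.30 had an adjusted p of 0.262 in limma. Adamts6 came next, at 3.25, 3.81 and 2.39 log2 CPM in R6/2 PLX3397 mice and 2.31, 2.03 and 2.20 log2 CPM in R6/2 vehicle mice. Its difference was 0.97 ± 0.35 with an adjusted p of 0.3, and Adamts8, another proteoglycan-cutting enzyme, differed by -0.89 ± 0.33 with an adjusted p of 0.306. Oligodendrocyte precursor markers summed to 164 to 209 CPM in R6/2 PLX3397 and 175 to 232 CPM in R6/2 vehicle mice, which overlap, whereas the microglial markers above did not overlap between the same groups.

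The test of whether the drug's change differed between genotypes called 5 members, 11.1% of them against 17% of all genes. In 4 the change was higher in R6/2 than in wild type (9.29% of all genes), and in 1 it was lower (7.71% of all genes), so these shares too are below the background. The 2617 genes behind the 17% became 537 when wild-type vehicle library 1 was left out, 625 for its library 2 and 683 for library 2 of R6/2 PLX3397. Adamts6 had a drug change of 0.97 in R6/2 and -1.76 in wild type on the log2 scale, which differed by 2.73 ± 0.49 with an adjusted p of 0.0139 in limma. For Adamts5 the changes were 0.96 in R6/2 and -0.73 in wild type, a difference of 1.70 ± 0.43 with an adjusted p of 0.0271. Adam10 changed by 0.15 in R6/2 and -0.89 in wild type, a difference of 1.03 ± 0.30 with an adjusted p of 0.0415. In these 3 genes the wild-type PLX3397 mice were the lowest group or, for Adamts5, level with R6/2 vehicle.

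Adam22 and Adam15 are the remaining members with a genotype-dependent drug change. Adam22 lies at chr5:8072347-8368312 on the minus strand, and had 8.12, 8.46 and 8.12 log2 CPM in R6/2 PLX3397, 7.29, 8.14 and 8.07 in R6/2 vehicle, 7.50, 7.35 and 7.95 in wild-type PLX3397 and 8.36, 8.45 and 8.18 in wild-type vehicle mice. Its drug change was 0.40 in R6/2 and -0.73 in wild type, a difference of 1.14 ± 0.33 with an adjusted p of 0.0386 in limma, although neither change was called by itself. Libraries of the drug and vehicle groups overlapped in R6/2 and did not in wild type. Adam15, a sheddase whose tail binds signalling proteins, lies at chr3:89339640-89350028 on the minus strand and went the other way. It had 6.63, 6.34 and 6.64 log2 CPM in R6/2 PLX3397, 7.04, 6.76 and 6.81 in R6/2 vehicle, 6.92, 7.10 and 6.95 in wild-type PLX3397 and 6.55, 6.34 and 6.79 in wild-type vehicle mice. The drug change was -0.33 in R6/2 and 0.43 in wild type, a difference of -0.76 ± 0.20 with an adjusted p of 0.0303, and neither genotype's groups overlapped. Of Adam15's exonic bases, 20.6% overlap a gene on the other strand, and whether the counting used strand is not given in the sources used here.

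Only the Adamts6 value among these 5 kept its call in all 12 fits that left out 1 library. Adam10 lost it in 9 of the 12, with adjusted p of up to 0.0998 without wild-type vehicle library 2, and kept it only without library 3 of wild-type PLX3397, library 3 of wild-type vehicle or library 2 of R6/2 vehicle. Adam22 lost it without any one of wild-type PLX3397 libraries 1 and 2, wild-type vehicle libraries 1 and 2, R6/2 vehicle library 1 and R6/2 PLX3397 libraries 1 and 2, with adjusted p of 0.0506 to 0.0937. Adam15 lost it without any one of wild-type PLX3397 library 2, wild-type vehicle libraries 1 and 2, R6/2 vehicle library 1 and R6/2 PLX3397 libraries 1 and 2, with adjusted p of 0.0537 to 0.0776. Adamts5 lost it without any one of wild-type vehicle libraries 1 and 2, R6/2 vehicle library 3 and R6/2 PLX3397 libraries 1 and 2, with adjusted p of 0.0509 to 0.0725. R6/2 PLX3397 libraries 1 and 2, the 2 of their group with few cortical markers, were also left out together. That fit keeps 1 library of the group, so a lack of calls there decides nothing. Once GC content and length were adjusted for, 0 members were called, against 2.57% of all genes: the difference was 1.69 ± 0.43 for Adamts6 with an adjusted p of 0.0624, 0.34 ± 0.45 for Adamts5, 0.16 ± 0.28 for Adam10, -0.25 ± 0.14 for Adam15 and -0.10 ± 0.16 for Adam22, which turned in sign.

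**Figure D2:**
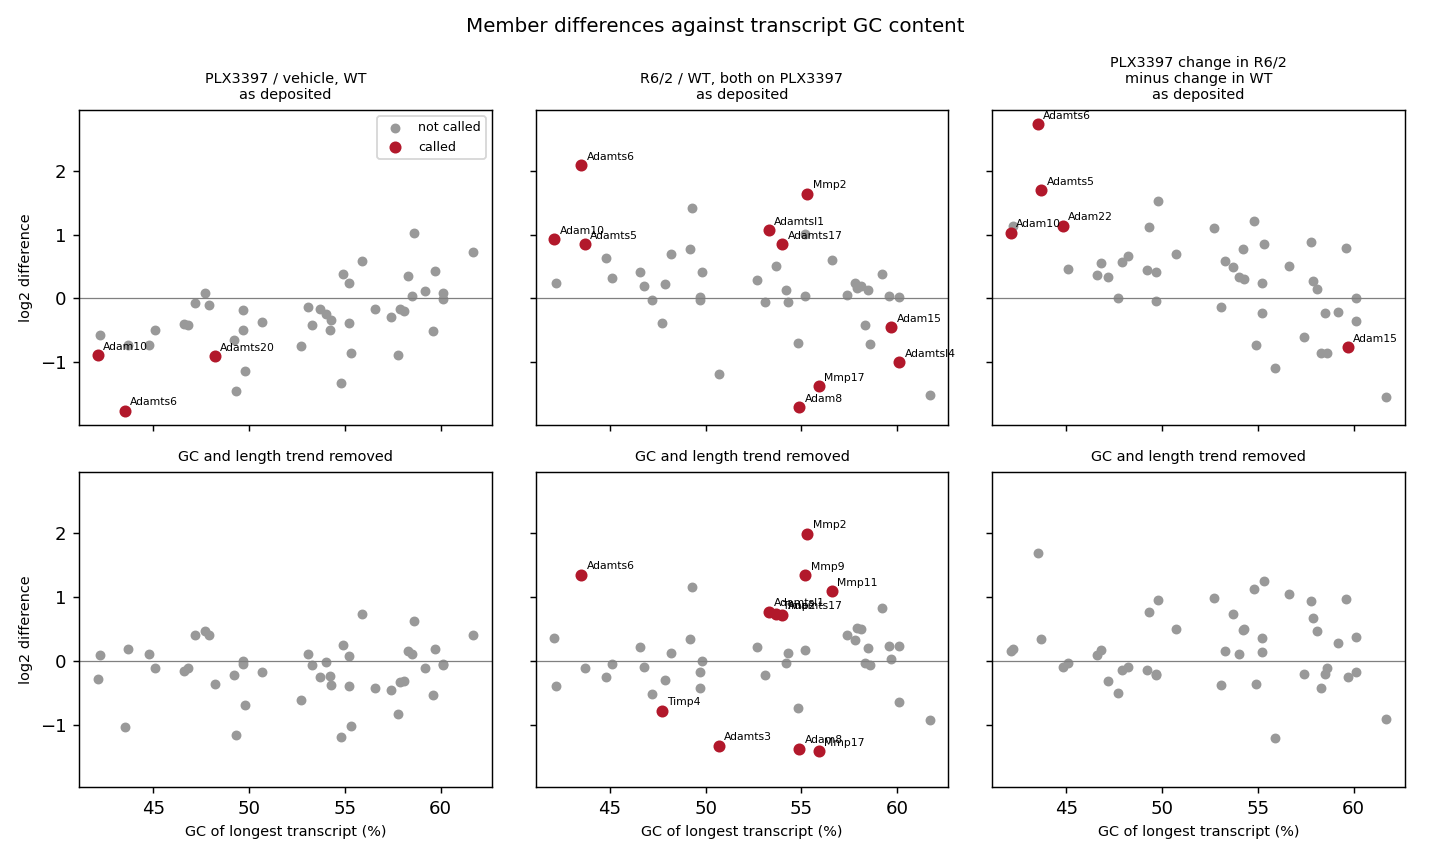
Log2 difference of each of the 45 members against the GC percent of its longest transcript. Columns show the drug in wild type, R6/2 against wild type on PLX3397 and the difference between genotypes. The upper row uses the values as deposited, and the lower row has the GC and length trend removed. Called members are coloured and named. As deposited, Spearman's rho over the members and over all genes was 0.57 and 0.55 for the drug in wild type. It was -0.45 and -0.48 for R6/2 against wild type on PLX3397, and -0.62 and -0.59 for the difference between genotypes.

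GC content of the longest transcript went with the members' differences, as it did over all genes. Across the 45 members, Spearman's rho between GC percent and the log2 difference was 0.57 for the drug in wild type, -0.45 for the drug in R6/2 and -0.62 for the difference between genotypes, next to 0.55, -0.49 and -0.59 across 14305 genes. These are descriptions across genes that share the same 12 libraries, and genes are not independent replicates. Among the called members, Adam10 has a GC content of 42.1%, Adamts6 43.5%, Adamts5 43.7%, Adam22 44.8%, Adamts20 48.2% and Adam15 59.7%. The source of the trend with GC content was not tested.

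For R6/2 against wild type, both on PLX3397, 10 members were called, 22.2% of them against 35% of all genes. The members that rose numbered 6 (17.1% of all genes) and those that fell 4 (17.9% of all genes), so the members' shares were again below the background. Higher in R6/2 were Adamts6, Adamtsl1, Adam10, Adamts17, Mmp2 and Adamts5. Lower in R6/2 were Adam8, Mmp17, Adam15 and Adamtsl4. The member median was 0.19, next to -0.003 over all genes, and the comparison shares its wild-type PLX3397 libraries with the drug's change in wild type, so they are not independent of each other.

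Among the secreted ADAMTS enzymes, Adamts6 had 3.25, 3.81 and 2.39 log2 CPM in R6/2 PLX3397 mice, against 0.88, 0.69 and 1.61 log2 CPM in wild-type PLX3397 mice. The groups did not overlap, and the gene rose by 2.09 ± 0.35, 4.26-fold, with an adjusted p of 0.00194 in limma. With Adamts6, all 6 ADAMTS enzymes outside the proteoglycan and procollagen groups were above 0, and 2 were called. Of these, Adamts7 at 0.24 ± 0.77 and Adamts18 at 1.42 ± 0.81 each had only 1 read in 1 wild-type PLX3397 library. Adamts17, an enzyme tied to fibrillin matrix and eye disease in people, had 2.97, 2.46 and 2.83 log2 CPM in R6/2 PLX3397 mice, against 2.32, 1.85 and 1.54 log2 CPM in wild-type PLX3397 mice. Its libraries did not overlap either, and the difference was 0.85 ± 0.23 with an adjusted p of 0.0154. Adamts5 had 2.52, 2.73 and 1.83 log2 CPM in R6/2 PLX3397 mice, against 1.24, 1.76 and 1.54 log2 CPM in wild-type PLX3397 mice, a difference of 0.85 ± 0.30 with an adjusted p of 0.0492. Its neighbour Adamts1 on chromosome 16, another proteoglycan-cutting enzyme, differed by -0.03 ± 0.27, and Adamts4 by 0.04 ± 0.28.

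The ADAMTS-like proteins share the binding domains of ADAMTS enzymes without a protease domain. Adamtsl1, at chr4:85513852-86428390 on the plus strand, had 3.51, 3.55 and 3.86 log2 CPM in R6/2 PLX3397 mice, against 2.60, 2.59 and 2.53 log2 CPM in wild-type PLX3397 mice, and rose by 1.07 ± 0.23 with an adjusted p of 0.00673 in limma. Adamtsl4, which binds fibrillin microfibrils, went the other way at 3.41, 3.37 and 4.11 log2 CPM in R6/2 PLX3397 mice, against 5.14, 4.54 and 4.21 log2 CPM in wild-type PLX3397 mice. Both pairs of groups were separate, and Adamtsl4's difference of -1.0 ± 0.36 had an adjusted p of 0.04996, the closest to the threshold of all 10. R6/2 mice on vehicle were low for Adamtsl4 as well, at 3.79, 3.37 and 3.46 log2 CPM, which differed from wild-type vehicle by -1.0 ± 0.36 with an adjusted p of 0.142 and was called without wild-type vehicle library 3.

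Among the ADAMs, Adam10 had 6.46, 6.40 and 6.64 log2 CPM in R6/2 PLX3397 mice, against 5.50, 5.30 and 5.92 log2 CPM in wild-type PLX3397 mice, and rose by 0.93 ± 0.22 with an adjusted p of 0.00867 in limma. Adam8, a sheddase of leukocytes and of activated glia at chr7:139978932-139995207 on the minus strand, was the member with the largest fall. It had -0.36, -0.17 and -0.72 log2 CPM in R6/2 PLX3397 mice, against 0.92, 1.09 and 1.85 log2 CPM in wild-type PLX3397 mice. Those values rest on 12 to 19 reads in R6/2 PLX3397 libraries and 35 to 71 in wild-type PLX3397 libraries, do not overlap, and differ by -1.70 ± 0.34 with an adjusted p of 0.00455. Adam8 was at 0.34, -0.07 and -0.49 log2 CPM in R6/2 vehicle mice and 1.02, 0.57 and 1.10 log2 CPM in wild-type vehicle mice, so R6/2 libraries were below wild-type libraries under both treatments. On vehicle that difference was -0.97 ± 0.34 with an adjusted p of 0.137. Adam15 fell by 0.45 on the log2 scale, with an SE of 0.14 and an adjusted p of 0.0311, and without overlap between the groups.

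Among the MMPs, Mmp17, a membrane-type enzyme held by a lipid anchor, lies at chr5:129584151-129611099 on the plus strand and had 5.95, 6.54 and 7.10 log2 CPM in R6/2 PLX3397 mice, against 7.98, 7.54 and 8.18 log2 CPM in wild-type PLX3397 mice. It fell by 1.37 on the log2 scale, 2.59-fold, with an SE of 0.29 and an adjusted p of 0.00596 in limma, and no libraries overlapped. The other 4 membrane-type enzymes were not called, with Mmp14 at -0.06 ± 0.33, Mmp16 at 0.24 ± 0.50 and Mmp24 at 0.20 ± 0.17. Mmp2, the gelatinase that Mmp14 and Timp2 activate, had 2.40, 2.81 and 3.30 log2 CPM in R6/2 PLX3397 mice, against 2.15, 1.34 and 0.11 log2 CPM in wild-type PLX3397 mice. The groups did not overlap, wild-type PLX3397 library 3 held only 20 reads of the gene, and the difference was 1.64 ± 0.54 with an adjusted p of 0.0367. Mmp9 differed by 1.01 ± 0.38 with an adjusted p of 0.0595, and of the inhibitors Timp2 by 0.51 ± 0.22, Timp3 by 0.19 ± 0.30 and Timp4 by -0.39 ± 0.20, with adjusted p of 0.0922, 0.643 and 0.151.

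Adamts6, Adamtsl1, Adam10, Adam8 and Mmp17 kept their calls in all 12 fits that left out 1 library. Adamts17 lost it without wild-type PLX3397 library 3 (adjusted p = 0.0503) or R6/2 PLX3397 library 1 (0.0616), and Adam15 without wild-type PLX3397 libraries 2 or 3 (0.0858 and 0.056) or R6/2 PLX3397 libraries 1 or 2 (0.0541 and 0.12). Mmp2 lost its call in 8 of the 12 fits, with adjusted p of up to 0.119 without wild-type PLX3397 library 3, and kept it only without wild-type PLX3397 library 1, wild-type vehicle library 3 or R6/2 vehicle libraries 1 or 2. Adamtsl4 lost it in 9, with adjusted p of up to 0.143 without wild-type PLX3397 library 1 or R6/2 PLX3397 library 2, kept it only without library 3 of wild-type PLX3397, wild-type vehicle or R6/2 PLX3397, and lost it with median-of-ratios scaling (0.0519). Adamts5 kept its call only without R6/2 vehicle library 3 or R6/2 PLX3397 library 3. With R6/2 PLX3397 libraries 1 and 2 both left out, 0 members and 237 of all genes were called. Once GC content and length were adjusted for, 11 were called, against 24% of all genes: Adamts6, Adamts17, Adamtsl1, Adam8, Mmp17 and Mmp2 among the 10 above, and Timp2, Timp4, Mmp9, Mmp11 and Adamts3 beside them. Adam10 then differed by 0.36 ± 0.20 (adjusted p = 0.206), Adam15 by 0.02 ± 0.10 and Adamts5 by -0.11 ± 0.31, both turned in sign. Medium spiny neuron markers were at 367 to 1201 CPM in R6/2 PLX3397 and 5255 to 10998 CPM in wild-type PLX3397 mice, and oligodendrocyte markers at 4136 to 6994 CPM in R6/2 PLX3397 and 8380 to 10962 CPM in wild-type PLX3397 mice. Oligodendrocyte precursor markers were at 164 to 209 CPM in R6/2 PLX3397 and 88.7 to 116 CPM in wild-type PLX3397 mice, without overlap. Their part in these differences was not tested.

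**Figure D3:**
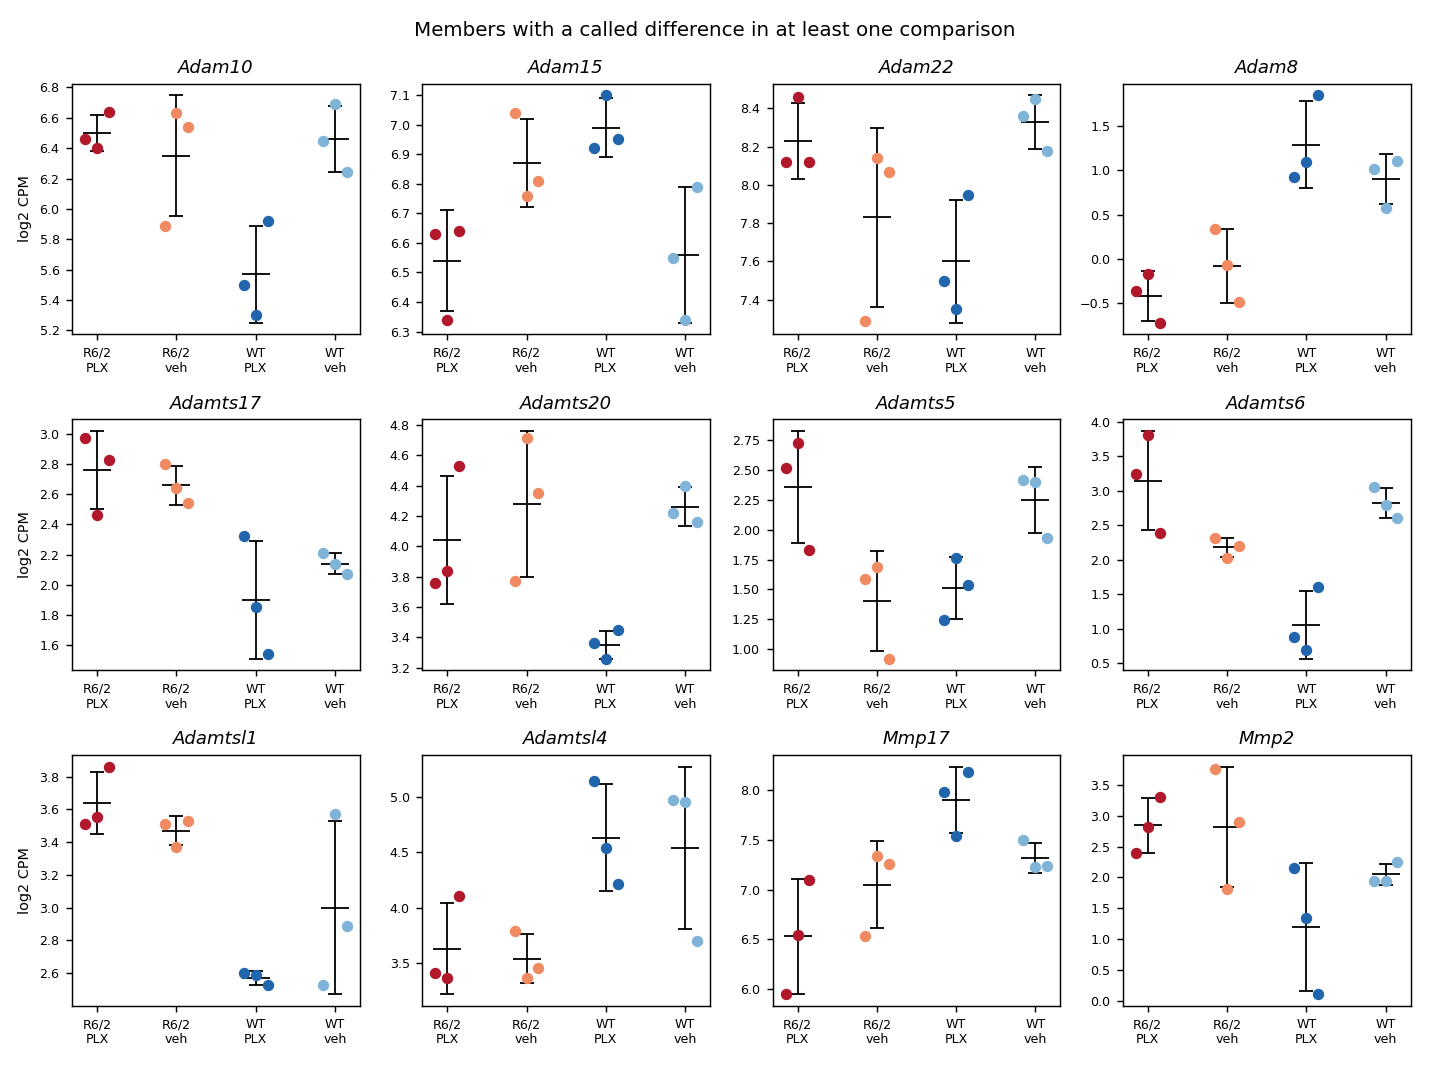
Log2 CPM of 12 members in each library, 1 panel per member, with the mean and SD of each group of 3 mice drawn beside the points. In the panel of Adamts6 the wild-type PLX3397 mice lie below the other 3 groups, in that of Adam10 they do but for 1 R6/2 vehicle library, and in that of Adam8 both R6/2 groups lie below both wild-type groups.

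For R6/2 PLX3397 against wild-type vehicle, which sets treated model mice beside untreated controls, 0 members were called, against 4.56% of all genes. An unadjusted p under 0.05 was reached by 8 members in limma, a count also without the share of all genes and not read as an excess. Limma-voom called 0, against 4% of all genes. The member median was -0.10, next to 0.015 over all genes. The smallest p belonged to Adam8, whose difference of -1.31 ± 0.34 had an adjusted p of 0.0558 and passed the threshold without wild-type PLX3397 library 1 (0.0499) or library 3 (0.0488). Adamts3 differed by -1.55 ± 0.47 (adjusted p = 0.0867) and Mmp9 by 1.25 ± 0.38 (0.089), and both were called after removal of the GC and length trend (0.044 and 0.0339), where 12% of all genes were called. Adamts3 had 4.20, 5.65 and 4.99 log2 CPM in R6/2 PLX3397 mice, against 6.34, 7.21 and 5.95 log2 CPM in wild-type vehicle mice. Mmp9 had 1.31, 0.52 and 0.59 log2 CPM in R6/2 PLX3397 mice, against -0.41, -1.01 and 0.10 log2 CPM in wild-type vehicle mice. Neither gene's groups overlapped, and R6/2 PLX3397 differed from R6/2 vehicle by 0.34 ± 0.47 for Adamts3 and 0.00 ± 0.38 for Mmp9. For Adamts6, Adam10 and Adam22 the same comparison gave 0.33 ± 0.35, 0.04 ± 0.22 and -0.10 ± 0.23.

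**Figure D4:**
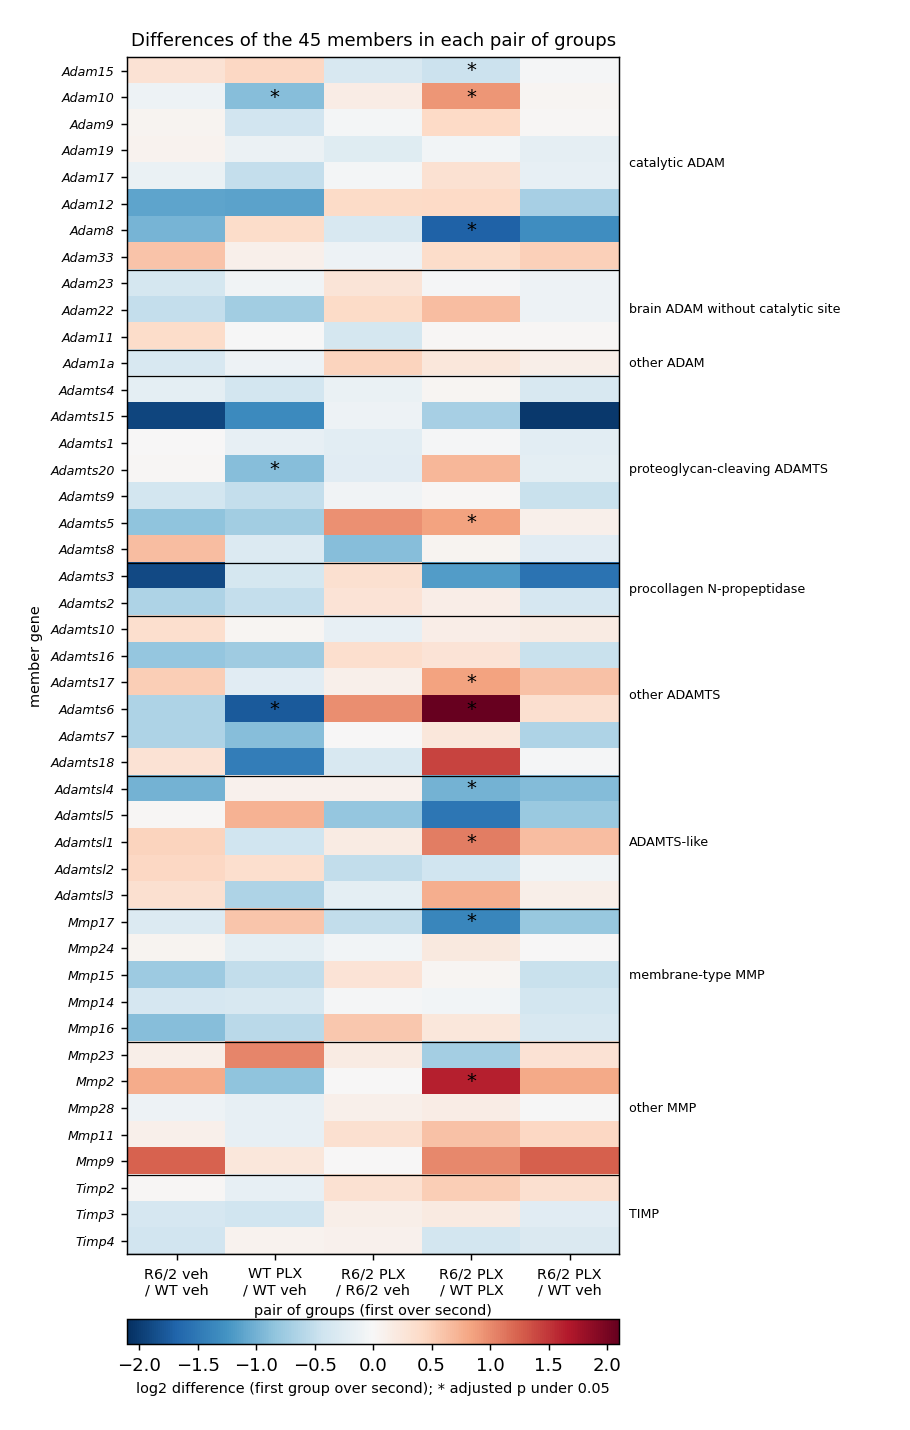
Log2 difference of each of the 45 members in the 5 pairs of groups, with members grouped by role. A star marks an adjusted p under 0.05. Stars stand in the columns for the drug in wild type and for R6/2 against wild type on PLX3397, and in no other column.

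Genes that work with these families were described from fixed lists. Of 40 partner proteases, inhibitors and matrix enzymes, 35 were measured. On vehicle 1 fell in R6/2, against 2.11% of all genes called, Spock3, a testican that inhibits membrane-type MMP activation, by 2.00 on the log2 scale (SE 0.39, adjusted p = 0.0364 in limma). Without wild-type vehicle library 1 or 2 the fall of Spock3 was not called, as 0 of all genes were called lower there. With the drug 1 fell in each genotype, where 1.1% of all genes were called in R6/2 and 14.2% in wild type. It was the microglial cysteine protease Ctss, with differences of -6.48 ± 0.55 in R6/2 and -5.49 ± 0.55 in wild type and adjusted p of 0.000162 and 0.000437. Between genotypes on PLX3397, 1 of the 35 rose and 2 fell, against 35% of all genes, among them Cemip2, a hyaluronan-degrading membrane protein, at 0.80 ± 0.19 (adjusted p = 0.0105) and the secreted serine protease Htra1 at -1.34 ± 0.15 (0.000452). Among the 45 members the lowest drug difference was -0.89 in R6/2 and -1.76 in wild type. For R6/2 PLX3397 against wild-type vehicle 0 rose and 2 fell, Ctss and Htra1, against 4.56% of all genes, and in the test of the difference between genotypes 1 was higher and 2 lower, against 17%. No share of this list is read as a result about it.

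Of 14 regulators and ligands of ADAMs, 13 were measured, and few were called. Lgi4, a ligand of Adam22 and its relatives in myelinating cells, was lower in R6/2 than in wild type on vehicle (-0.91 ± 0.21, adjusted p = 0.0481 in limma) and on PLX3397 (-1.22 ± 0.21, 0.00204). On vehicle it was the 1 gene of the list called, against 2.11% of all genes. It was also the 1 called for R6/2 PLX3397 against wild-type vehicle (-0.95 ± 0.21, 0.0257), against 4.56% of all genes. The call on vehicle was lost without wild-type vehicle library 1 or 2, where 0 of all genes were called lower. Frmd8, a partner of the iRhom proteins that bring Adam17 to the surface, differed by -0.92 ± 0.23 (0.0131) on PLX3397, where 1 of the list rose and 2 fell, against 35% of all genes called. Sh3d19, which binds ADAM tails, fell with the drug in wild type by 0.78 on the log2 scale (SE 0.21, adjusted p = 0.0336), as the 1 gene of the list called there, against 14.2% of all genes. With the drug in R6/2 and in the difference between genotypes 0 of the 13 were called.

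Of 18 substrates of these proteases, 17 were measured. With the drug in wild type 0 rose and 2 fell, against 14.2% of all genes called: versican (Vcan) at -1.86 ± 0.40 and aggrecan (Acan) at -0.88 ± 0.26 on the log2 scale, with adjusted p of 0.0172 and 0.0478 in limma. On PLX3397, 3 were higher and 4 lower in R6/2 than in wild type, against 35% of all genes called, with the smallest p for the chemokine Cx3cl1, an Adam10 and Adam17 substrate, at -1.50 ± 0.23 (adjusted p = 0.00136) and the growth factor Hbegf at -1.0 ± 0.18 (0.00292). On vehicle, with the drug in R6/2 and for R6/2 PLX3397 against wild-type vehicle 0 of the 17 were called, and in the test of the difference between genotypes 1 was called, Vcan at 2.30 ± 0.56 (0.0241). Vcan is also 1 of the 5 precursor markers above.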

How the data were processed

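The authors deposited one table of log2 CPM values for 12 striatum libraries, although it is named for RPKM: all libraries shared a lowest value of -3.46, and antilogs summed to 920461 to 1070703 per library. The submitters' processing notes name STAR, featureCounts, edgeR, limma and mm10, without versions. After removal of a prior of about 2 reads, 100% of values were whole reads within 0.1 read, with 18902120 to 24293208 reads per library. Every column was mapped to a sample by its label. The values were used as deposited, with no filter, in place of a planned log transform.

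One limma fit (version 3.58.1 under R 4.3.3) estimated 4 group means for each of 15397 genes, with a two-sided test and a trend of the variance with level, and a gene was called at an adjusted p under 0.05. Differences are on the log2 scale with a prior, which understates those of low genes. Errors given as ± are SE for differences and SD for levels. Exon length and GC content came from GENCODE M21 (14305 genes, 92.9%, all 45 members), and positions and promoters from RefSeq on GRCm38. Exons of Adam1a overlap Mapkapk5 (24% of its bases, same strand) and Gm42878 (63.7%), and those of Timp3 overlap Syn3 (21.3%, opposite strand), so their levels are uncertain. The members, lists and alternatives were chosen with earlier results of these data known. Named genes are members called in any comparison, the 3 smallest p of each comparison, fixed members such as Adam17 and Timp2, and the 2 smallest p of a list. Adamts15 and Adam9, outside this rule, were chosen once their values were known. The test was tried on simulated data for the vehicle groups (R6/2 against wild type, 5 runs, 200 of 15397 genes changed): 37.2% of 2-fold and 79.6% of 4-fold changes were recovered, with 5.8 false calls per run. Noise was drawn separately for each gene and library, without the shifts that many genes of a real library share. The number of false calls therefore need not carry over to these data. Replicates correlated at r = 0.938 to 0.986 and differed beyond sampling noise (chi-square per degree of freedom 15.5 to 149). Alternatives were median-of-ratios scaling, 1 CPM added before the log, a minimum mean of 1 CPM, a replicate block, fits of each pair of groups alone, limma-voom on recovered reads with the authors' scaled library sizes, removal of a GC and length trend, and leaving out libraries. Tables and plots used Python 3.11.15.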

Additional observations from a re-analysis of the deposited data

Results flagged for a closer look

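For 5 members the change with PLX3397 differed between R6/2 and wild-type mice in limma's test of the difference itself. That is 11.1% of the members against 17% of all genes, so the number is no result about the families. Only Adamts6 among them kept its call in all 12 fits that left out 1 library. Adamts6 had a difference of 2.73 on the log2 scale, Adamts5 of 1.70, Adam22 of 1.14 and Adam10 of 1.03, each with the higher change in R6/2, and Adam15 had a difference of -0.76, with the lower change in R6/2. With the GC and length trend removed these were 1.69, 0.34, -0.10, 0.16 and -0.25 in the same order of genes, and 0 of them were called.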

How the results depend on the processing

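Counts of called members for the drug in R6/2 stayed at 0 in every alternative run. For R6/2 against wild type on vehicle, where 0 were called, 1 was called in a fit of those groups alone, 1 with the GC and length trend removed, 1 without R6/2 PLX3397 replicates 1 and 2, and 0 to 1 when single libraries were left out, and the gene called was Adamts15, but Adamts3 with the trend removed and Adamtsl4 without wild-type vehicle library 3. For the drug in wild type, with 3 called, it was 0 with the trend removed, 8 with the pair of libraries rich in choroid plexus markers left out, and 0 to 5 over single libraries, at 0 without wild-type vehicle library 1 or 2. For R6/2 against wild type on PLX3397, with 10 called, it was 5 in a fit of those groups alone, 0 without R6/2 PLX3397 replicates 1 and 2, 13 with the choroid plexus pair left out, and 5 to 11 over single libraries, with 5 without R6/2 PLX3397 library 1. For R6/2 PLX3397 against wild-type vehicle, with 0 called, it was 2 with the trend removed, 1 without R6/2 PLX3397 replicates 1 and 2, 1 with the choroid plexus pair left out, and 0 to 1 over single libraries. For the difference between genotypes, with 5 called, it was 0 with the trend removed, 0 without R6/2 PLX3397 replicates 1 and 2, and 1 to 7 over single libraries, at 1 when library 1 or 2 of wild-type vehicle or of R6/2 PLX3397 was left out. Adam15 at 0.02 and Adamts5 at -0.11 for R6/2 against wild type on PLX3397, and Adam22 at -0.10 for the difference between genotypes, reversed with the trend removed. Fewer libraries give fewer degrees of freedom; the cause of the other shifts was not tested. The trend's removal moved the median of all genes by over 0.1 only for R6/2 PLX3397 against wild-type vehicle, to 0.125 against 0.015. Over all genes it called 367 for the difference between genotypes (96 higher, 271 lower), against 2617 (1430 higher, 1187 lower). With the choroid plexus pair left out, 3560 of all genes were called for the drug in wild type, against 2191. For R6/2 against wild type on PLX3397 that fit called 6046, against 5389, and the fit of those groups alone called 2934. For R6/2 PLX3397 against wild-type vehicle, leaving out the pair called 1123, against 702. In these fits the members' counts went the same way as those of all genes. Counts over all genes moved with single libraries too. They ran at 1 to 561, against 325, for R6/2 against wild type on vehicle, with 1 without wild-type vehicle library 1 or 2 and 2, 51, 79 and 162 without R6/2 vehicle library 2, 3, 1 and wild-type PLX3397 library 3, and 561 without wild-type PLX3397 library 1. For the drug in wild type they ran at 228 to 2716, against 2191, with 228 when wild-type vehicle library 1 was left out, 242 for its library 2 and 935 when library 2 of wild-type PLX3397 was left out. For the drug in R6/2 they ran at 125 to 381, against 169, with 381 without R6/2 PLX3397 library 3. For R6/2 against wild type on PLX3397 they ran at 3383 to 5630, against 5389, with 3383 and 3461 without R6/2 PLX3397 library 1 and 2. For R6/2 PLX3397 against wild-type vehicle they ran at 246 to 931, against 702, with 246 without wild-type vehicle library 1 or 2 and 294 and 388 without R6/2 PLX3397 library 1 and 2. For the difference between genotypes they ran at 537 to 3532, against 2617, with 537 and 625 without wild-type vehicle library 1 and 2, 862 and 683 without R6/2 PLX3397 library 1 and 2, and 1158 and 1668 without R6/2 vehicle library 1 and 2. Genes with few reads, such as Adam8 and Mmp9, are limited by counting error.

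Replicate numbers are shared between groups, and the main fit treated the samples as unpaired. Same-numbered libraries' deviations from their group means correlated at -0.321 to 0.396, and differently numbered ones at -0.425 to 0.430. Deviations within a group of 3 depend on each other, so these correlations cannot settle whether the samples were paired. With the number as a replicate block, 3 members were called for the drug in wild type, 8 for R6/2 against wild type on PLX3397, 4 for the difference between genotypes and 0 in each of the other 3 comparisons. Over all genes the block called 40, against 325, for R6/2 against wild type on vehicle, 1110, against 2191, for the drug in wild type, 409, against 702, for R6/2 PLX3397 against wild-type vehicle, and 1432, against 2617, for the difference between genotypes. Single calls lost under the block were Adamts20 for the drug in wild type (adjusted p = 0.0558 in limma), Mmp2 (0.0512) and Adamtsl4 (0.0615) for R6/2 against wild type on PLX3397, and Adam10 (0.0641) and Adam22 (0.0559) for the difference between genotypes. The block gained Adam12 for the drug in wild type and for the difference between genotypes.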
